A study of Mus musculus with 12 samples.

Results

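The 10 genes described here form the core of the circadian clock: Bmal1, Clock, Per1, Per2, Per3, Cry1, Cry2, Nr1d1, Nr1d2 and Dbp. They were chosen by gene symbol, with results of these data in view. Which measured values guided that choice is not recorded, so all their fold changes and p-values are given as a description. All 10 symbols matched an identifier among the 78298 in the count table, and all 10 were among the 22190 genes with enough counts to be tested. RNA was sequenced from macroscopic LLC tumours and from adjacent normal lung, cut out under a microscope from mice exposed long term to HDM, house dust mite, or given VEH. The 4 groups were normal lung VEH, normal lung HDM, tumour VEH and tumour HDM, with 3 libraries each. The labels leave LLC and VEH unspelled, and the strain, sex, age and hour of collection are not given in the sources used here. Nothing in them says whether replicates came from separate mice, so p-values measure the spread between these 12 libraries only.

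A conflict in the labels touches every comparison. Each library name begins with a prefix that 1 lung and 1 tumour library share, which gives 6 pairs. In 2 of the 6 pairs the treatment labels differ: the second normal VEH library is joined to tumour HDM replicate 2, and normal HDM replicate 3 to the third tumour VEH library. The labels were used as given, and results are also stated without these 4 libraries.

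The clock is a feedback loop of transcription that runs with a period of about a day in most cells, lung included. BMAL1 and CLOCK bind E-boxes as a pair and switch on the Per, Cry, Nr1d and Dbp genes. PER and CRY proteins then block BMAL1 and CLOCK, the receptors encoded by Nr1d1 and Nr1d2 (REV-ERBs) repress Bmal1 through ROR elements, and DBP acts through D-boxes. Bmal1 RNA therefore peaks at the opposite time of day to Nr1d1 and Dbp RNA.

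The letters of these elements were looked for in the genes' own promoters. RefSeq windows from 250 bases before to 50 bases after a transcription start were given for 9 of the 10 genes (13 windows, table build GRCm38.p6), and each was located by exact match in GRCm39, whose coordinates are used below. Both strands were searched for the E-box CACGTG, the E-prime box CACGTT, the D-box TTANNTAA and the ROR element TAGGTCA or TGGGTCA. The stretches below are the ones that hold a match, written 5′ to 3′ on the gene's strand with the matched letters in capitals. AACGTG is CACGTT read from the other strand. Positions count from the RefSeq start.
Per3, chr4:151129263-151129342, minus strand, -220 to -141, a pair of D-boxes upstream of the gene: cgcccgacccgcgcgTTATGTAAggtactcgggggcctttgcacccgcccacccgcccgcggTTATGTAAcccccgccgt
Nr1d1, chr11:98666204-98666303, minus strand, -100 to -1, an E-prime box: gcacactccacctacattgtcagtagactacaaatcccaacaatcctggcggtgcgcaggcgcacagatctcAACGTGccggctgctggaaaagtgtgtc
Per1, chr11:68989597-68989626, plus strand, -178 to -149, an E-box: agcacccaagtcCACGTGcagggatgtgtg
Cry1, chr10:85020971-85021000, minus strand, -82 to -53, an E-prime box and an E-box: agaAACGTGaggtgccggtggtCACGTGgg
Cry2, chr2:92264563-92264592, minus strand, -178 to -149, an E-prime box: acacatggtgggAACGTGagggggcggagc
Bmal1, chr7:112806738-112806767, plus strand, 21 to 50 past the start, a ROR element: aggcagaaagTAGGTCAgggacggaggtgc

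Among 32851 RefSeq windows of this length, 7.15% held the E-box, 4.68% the E-prime box, 6% the D-box and 6.45% the ROR element, so the matches are a description of these windows and not evidence of binding. The windows of Clock, Nr1d2 and Dbp held none of these letters. The stretches of Per1, Cry1 and Bmal1 lie inside the gene spans of the GENCODE M39 annotation (GRCm39), because longer transcripts start further upstream. Those of Per3, Nr1d1 and Cry2 lie outside the spans, on the upstream side.

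Library totals ranged from 20608682 to 32765364 counts, and the members' counts from 59 (Per3 in tumour VEH replicate 1) to 10730 (Nr1d1 in normal HDM replicate 3), so counting error was small for most values. Levels are CPM, each count divided by its library's TMM-adjusted total. Airway epithelium markers (5 genes) summed to 26782 to 112770 CPM in normal VEH, 24601 to 62542 in normal HDM, 461 to 20277 in tumour VEH and 3.64 to 1149 in tumour HDM. Alveolar markers (7 genes) summed to 17227 to 35126 and 24932 to 42668 CPM in the 2 lung groups, and to 2233 to 8556 and 38.8 to 2433 in the tumours. Endothelial markers (6 genes) summed to 1156 to 2592 and 2226 to 2553 CPM in the lungs, and to 278 to 448 and 93.9 to 258 in the tumours. None of these 18 markers was at 0 in any library. Under VEH 0 of 5 airway, 1 of 7 alveolar and 6 of 6 endothelial markers were called lower in tumours, and under HDM 4 of 5, 7 of 7 and 6 of 6. Fibroblast and matrix markers (5 genes) summed to 786 to 3001 and 990 to 1767 CPM in the lungs, and to 4584 to 11651 and 10658 to 13297 in the tumours. These sums are weighted to the most abundant genes. Of the 5, 2 were called higher and 1 lower in tumours in each treatment, with median log2 fold changes of 0.73 (VEH) and 0.62 (HDM). Cell cycle genes (6 genes) were higher in tumours, summing to 27.8 to 153 CPM in normal VEH, 29.5 to 40.3 in normal HDM, 637 to 716 in tumour VEH and 491 to 1005 in tumour HDM. Tumour VEH replicate 2 had the most airway and alveolar RNA of the 6 tumours, and tumour HDM replicate 3 the least. In bulk tissue, fewer cells of a type and less RNA per cell cannot be told apart.

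In both treatments, tumours had more Bmal1 RNA than adjacent lung and less RNA of Clock and of 6 of the 8 Per, Cry, Nr1d and Dbp genes, the exceptions being Per1 and Cry1. Under VEH, 8 of the 10 genes were called changed by edgeR at an adjusted p below 0.05 (1 higher, 7 lower), where 38.9% of all genes tested were called (18.2% higher, 20.6% lower). Under HDM, 9 of 10 were called (2 higher, 7 lower), against 51.9% of all genes (23% higher, 28.9% lower). The median log2 fold change of the 10 genes was -1.81 under VEH and -1.29 under HDM, where that of all genes was -0.11 and -0.08. The groups did not overlap for 10 of 10 genes under VEH and 9 of 10 under HDM, where 52.4% and 63.1% of all genes did not overlap. Without the 4 libraries of conflicting prefixes, 8 of 10 were called under VEH (1 higher, 7 lower; 25% of all genes) and 6 of 10 under HDM (1 higher, 5 lower; 37.9%).

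**Figure D1:**
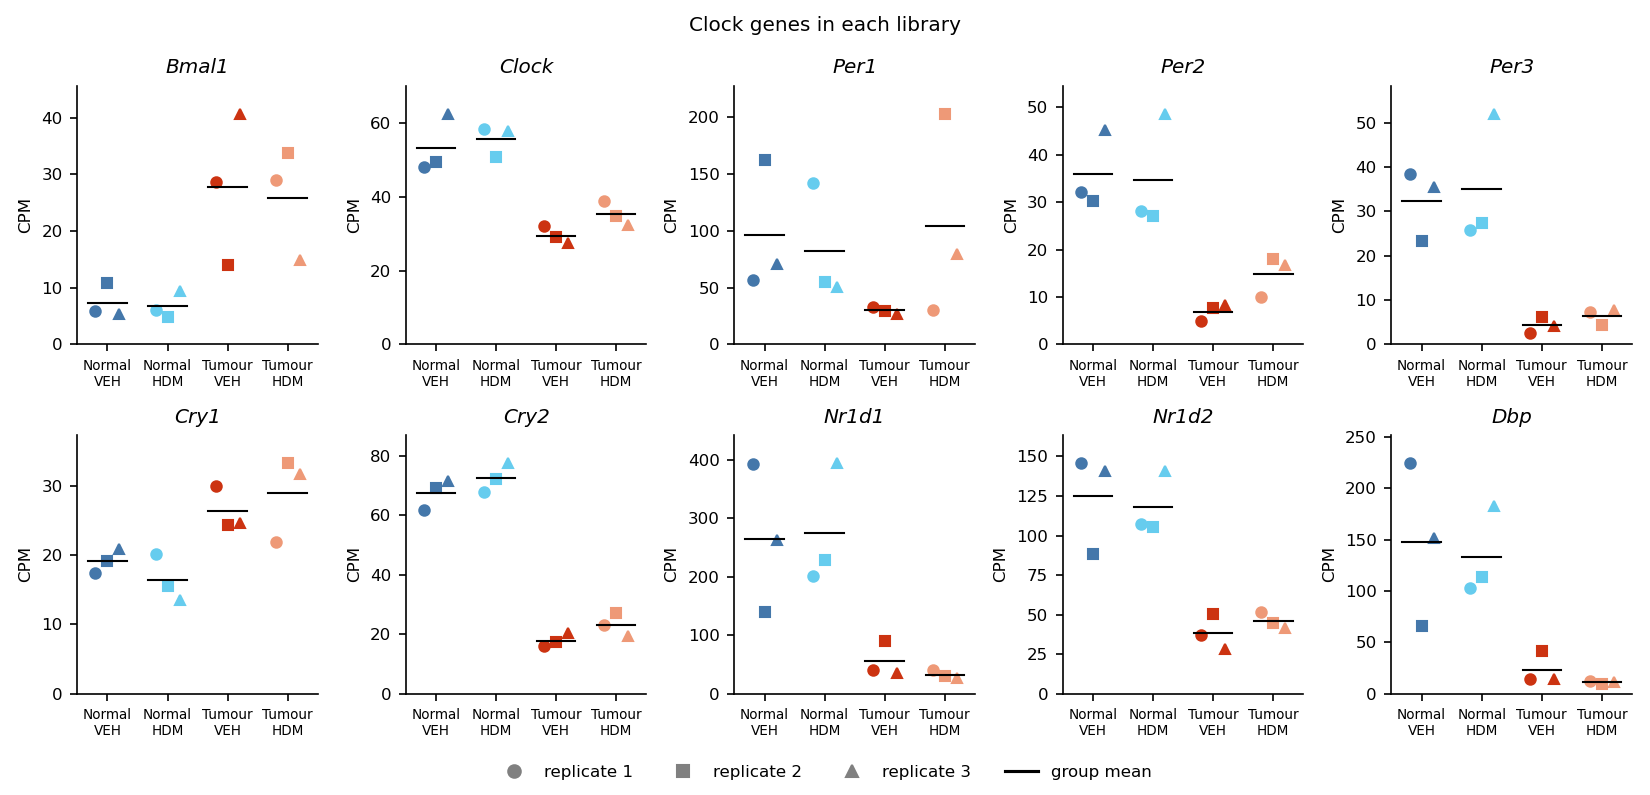
CPM of each clock gene on a linear axis from 0, 1 panel per gene, with 1 marker per library (3 per group) and a bar at the group mean. Bmal1 and Cry1 sit higher in the tumours, Per1 overlaps between the tissues, and the other 7 genes sit lower in all 6 tumours than in all 6 lungs.

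Bmal1 (ENSMUSG00000055116, chr7:112806152-112914735, plus strand) encodes the limiting activator of the loop. In replicates 1, 2 and 3, always in that order below, its level was 5.95, 10.8 and 5.43 CPM in normal VEH and 6.02, 4.79 and 9.43 in normal HDM. Tumour levels were 28.7, 14.1 and 40.7 CPM under VEH and 29.0, 33.7 and 14.8 under HDM. All 6 tumours lay above all 6 lungs, and the lowest 2 tumours were tumour VEH replicate 2 and tumour HDM replicate 3, which stand at opposite ends of the airway and alveolar marker range. Bmal1 rose 3.75-fold under VEH (log2 fold change 1.91 ± 0.46 SE, adjusted p = 0.00934, edgeR) and 3.83-fold under HDM (1.94 ± 0.46, adjusted p = 0.0057).

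Clock (ENSMUSG00000029238, chr5:76342860-76452846, minus strand), which encodes the partner of BMAL1, moved the opposite way and less. Its levels were 48.1, 49.4 and 62.6 CPM in normal VEH and 58.4, 50.9 and 57.9 in normal HDM. They were 32.1, 29.0 and 27.6 CPM in tumour VEH and 39.0, 34.9 and 32.5 in tumour HDM, with no overlap between the tissues. Clock fell 1.81-fold under VEH (log2 fold change -0.85 ± 0.14 SE, adjusted p = 0.0016, edgeR) and 1.57-fold under HDM (-0.65 ± 0.14, adjusted p = 0.00355). Under HDM the call was lost without the 4 libraries of conflicting prefixes (-0.51, adjusted p = 0.0944; 3.98e-05 to 0.0944 over 15 alternatives). The ratio of the 2 partners therefore differed between tissues, since Bmal1 rose while Clock fell.

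The Period genes encode the PER proteins, which carry the negative limb of the loop, and they did not all behave alike. Per2 (ENSMUSG00000055866, chr1:91343700-91387069, minus strand) was at 32.2, 30.3 and 45.3 CPM in normal VEH and 28.2, 27.1 and 48.6 in normal HDM. Its tumour levels were 4.89, 7.59 and 8.26 CPM under VEH and 9.98, 18.0 and 16.7 under HDM. Every tumour was below every lung, and every tumour HDM library was above every tumour VEH library. Per2 fell 5.20-fold under VEH (log2 fold change -2.38 ± 0.33 SE, adjusted p = 0.000732, edgeR) and 2.32-fold under HDM (-1.22 ± 0.32, adjusted p = 0.00878). The HDM call was lost without normal HDM replicate 3, which had the highest Per2 of all libraries (-0.79, adjusted p = 0.0578), and without the 4 libraries of conflicting prefixes (-0.95, adjusted p = 0.0627). Over 15 alternatives its adjusted p ran from 0.000621 to 0.0627.

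Per3 (ENSMUSG00000028957, chr4:151081373-151129140, minus strand), whose promoter stretch above holds the pair of D-boxes, is the Period gene least needed for the rhythm itself. It was at 38.5, 23.4 and 35.4 CPM in normal VEH and 25.9, 27.3 and 52.1 in normal HDM. The tumours had 2.51, 6.28 and 4.24 CPM under VEH and 7.43, 4.47 and 7.67 under HDM. No library of one tissue reached the range of the other. Per3 fell 7.45-fold under VEH (log2 fold change -2.90 ± 0.41 SE, adjusted p = 0.000793, edgeR) and 5.38-fold under HDM (-2.43 ± 0.40, adjusted p = 0.000821). Without the 4 libraries of conflicting prefixes the HDM value was -1.71, still called.

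Per1 (ENSMUSG00000020893, chr11:68986035-69002300, plus strand) responds to glucocorticoids and acute signals as well as to the clock, and in tumours it had the widest spread of the 10 genes, the highest library being 7.47 times the lowest. It was at 56.7, 163 and 70.6 CPM in normal VEH and 142, 55.0 and 50.9 in normal HDM. The tumours had 32.7, 29.8 and 27.2 CPM under VEH and 30.3, 203 and 79.9 under HDM. A lung library stood out in each lung group, 2 tumour HDM libraries stood above all tumour VEH libraries, and the highest and the lowest of all 12 values were both in tumours. The log2 fold change was -1.69 ± 0.66 SE under VEH, where the groups did not overlap but the gene was not called (adjusted p = 0.0646, edgeR), and 0.34 ± 0.64 under HDM (adjusted p = 0.68). The VEH value was called with the DESeq2 Wald test (-1.72), with only the compared groups in the fit (-1.67) and with genes of at least 10 counts in every library (-1.77), and was -1.08 without normal VEH replicate 2. Over 15 alternatives it ran from -1.96 to -0.80, the latter with the library-name prefix as a block, and its adjusted p from 0.0191 to 0.268. The HDM value changed sign without tumour HDM replicate 2 (-0.50), and without normal HDM replicate 1 it was 0.98.

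Of the cryptochromes, which encode the strongest repressors of BMAL1 and CLOCK, Cry2 fell and Cry1 did not. Cry2 (ENSMUSG00000068742, chr2:92233894-92264474, minus strand) was at 61.8, 69.2 and 71.5 CPM in normal VEH and 67.6, 72.1 and 77.6 in normal HDM. Tumour levels were 15.9, 17.2 and 20.3 CPM under VEH and 23.0, 27.0 and 19.4 under HDM. It had the narrowest spread of the 10 genes in lung, where the highest library was 1.25 times the lowest. Cry2 fell 3.79-fold under VEH (log2 fold change -1.92 ± 0.16 SE, adjusted p = 0.000282, edgeR) and 3.13-fold under HDM (-1.65 ± 0.15, adjusted p = 9e-05).

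Cry1 (ENSMUSG00000020038, chr10:84967560-85021252, minus strand) normally peaks later than the other E-box genes, since it is also under REV-ERB control. It was at 17.4, 19.1 and 20.9 CPM in normal VEH and 20.2, 15.6 and 13.6 in normal HDM. Its tumour levels were 30.0, 24.4 and 24.6 CPM under VEH and 21.9, 33.4 and 31.8 under HDM, above every lung. The rise was called under HDM (1.77-fold, log2 fold change 0.82 ± 0.21 SE, adjusted p = 0.008, edgeR), and the VEH value was 0.46 ± 0.21 (adjusted p = 0.1). The HDM call was lost with the library-name prefix as a block (0.67, adjusted p = 0.0605) and without the 4 libraries of conflicting prefixes (0.68, adjusted p = 0.0844), and over 15 alternatives the adjusted p ran from 0.00211 to 0.0844. The VEH value passed with scaling by library size only (0.60, adjusted p = 0.0391; 0.0391 to 0.235 over 15 alternatives).

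The nuclear receptor genes Nr1d1 and Nr1d2 fell in both treatments. Nr1d1 (ENSMUSG00000020889, chr11:98658752-98666188, minus strand), which encodes REV-ERBα, was at 393, 139 and 263 CPM in normal VEH and 201, 228 and 395 in normal HDM. Tumour levels were 40.8, 90.3 and 35.9 CPM under VEH and 39.5, 30.7 and 26.7 under HDM. Tumour VEH replicate 2, with the most airway and alveolar RNA, was the highest tumour, and it was still below the lowest lung. Nr1d1 fell 4.76-fold under VEH (log2 fold change -2.25 ± 0.46 SE, adjusted p = 0.0043, edgeR) and 8.51-fold under HDM (-3.09 ± 0.47, adjusted p = 0.0006).

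Nr1d2 (ENSMUSG00000021775, chr14:4230545-4266624, plus strand), which encodes REV-ERBβ, was at 146, 88.5 and 141 CPM in normal VEH and 108, 106 and 141 in normal HDM. In tumours it was at 37.3, 50.2 and 27.9 CPM under VEH and 51.4, 44.5 and 41.6 under HDM. Its fall was smaller than that of Nr1d1, at 3.25-fold under VEH (log2 fold change -1.70 ± 0.25 SE, adjusted p = 0.00088, edgeR) and 2.57-fold under HDM (-1.36 ± 0.25, adjusted p = 0.00128). The difference between the 2 receptor genes was not tested.

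Dbp (ENSMUSG00000059824, chr7:45354512-45359627, plus strand) encodes a PAR bZIP factor that carries the clock's signal to output genes through D-boxes. It was at 225, 65.8 and 152 CPM in normal VEH and 102, 114 and 183 in normal HDM. In tumours it was at 13.8, 41.3 and 14.0 CPM under VEH and 12.2, 9.80 and 11.4 under HDM. The 5 other tumours lay close together, and tumour VEH replicate 2 was again the highest. Dbp fell 6.39-fold under VEH (log2 fold change -2.68 ± 0.53 SE, adjusted p = 0.00364, edgeR) and 11.9-fold under HDM (-3.58 ± 0.55, adjusted p = 0.000598). Without tumour VEH replicate 2 the VEH value was -3.40.

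Some of these reads cannot be placed by strand. The libraries were stranded, but the strand setting of the counting is not given in the sources used here, and 3 of the 10 genes overlap a well-expressed gene on the opposite strand. Dbp (24355 counts in all) overlaps Sphk2 (22559), whose log2 fold change was -1.39 in both treatments. Nr1d1 (48835) overlaps Thra (41053), at -1.01 under VEH and -1.17 under HDM. Clock (13755) overlaps Tmem165 (22427), at -0.01 and 0.22. Sphk2 (adjusted p = 0.0086 under VEH and 0.00559 under HDM, edgeR) and Thra (0.03 and 0.0115) were called lower in both treatments. The falls of Dbp and Nr1d1 were larger than those of these partners, and Clock fell while Tmem165 was not called. The part of opposite-strand reads in these values was not tested.

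**Figure D2:**
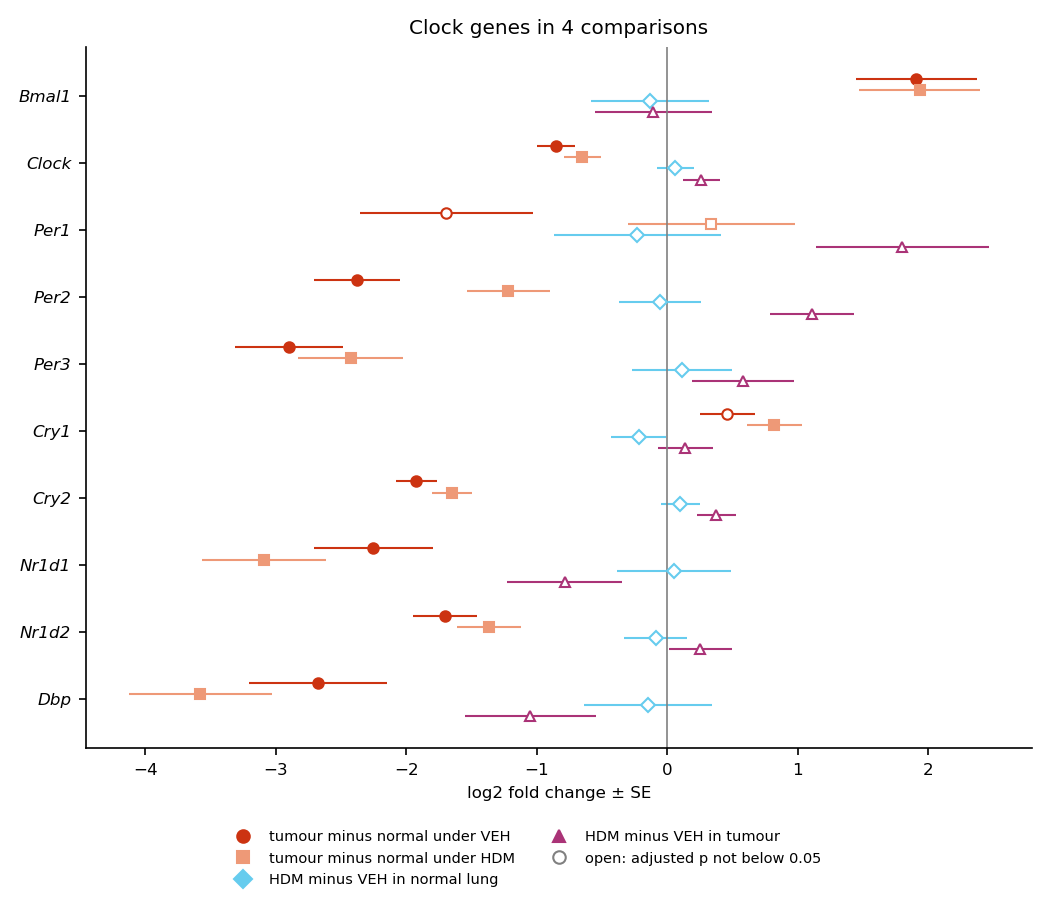
Log2 fold change of each clock gene in 4 comparisons, with bars of ± 1 SE from the edgeR fit of all 12 libraries; filled symbols passed an adjusted p below 0.05 and open ones did not. The tumour comparisons spread from -3.58 to 1.94, and the HDM comparison in lung stays between -0.23 and 0.11.

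By the labels as given, HDM made no detectable difference to the clock genes of adjacent lung. None of the 10 was called, where 0% of all genes tested were called, and none passed an unadjusted p below 0.05 (5.54% of all genes). The log2 fold changes ran from -0.23 ± 0.64 SE (Per1) to 0.11 ± 0.38 (Per3), and for Dbp, whose group means were 147 ± 79.6 and 133 ± 43.6 CPM (SD, n = 3), the value was -0.15 ± 0.49. No member had groups that did not overlap, where 10.3% of all genes did. With an SE near 0.5 for Dbp, a moderate change could not have been seen. Without the 4 libraries of conflicting prefixes, none was called either (0% of all genes). Grouped instead by the label of the tumour of their prefix, lungs had Dbp at 225, 152 and 183 CPM (VEH) and 65.8, 102 and 114 (HDM). Nr1d1, Nr1d2, Per2 and Per3 did not overlap either, also lower for HDM, and the other members overlapped. The share of all genes without overlap in this grouping was not computed. Macrophage markers (5 genes) split these lungs too, summing to 206, 296 and 215 CPM (VEH) and 7648, 8076 and 5570 (HDM). Which labels are right was not tested.

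In tumours, no clock gene was called between HDM and VEH by edgeR, where 0.0946% of all genes were called. At an unadjusted p below 0.05 there were 3 of 10 (16.7% of all genes), namely Per2, Per1 and Cry2. Per2 was 2.16-fold higher under HDM (log2 fold change 1.11 ± 0.32 SE, adjusted p = 0.183), with group means of 6.91 ± 1.79 and 14.9 ± 4.30 CPM (SD, n = 3) and no overlap. The DESeq2 Wald test called Per2 (1.07, adjusted p = 0.0423; 0.0423 to 0.416 over 15 alternatives), along with 6.02% of all genes. Per1 was at 1.80 ± 0.66 (adjusted p = 0.236), and at 0.86 without tumour HDM replicate 2. Cry2 was at 0.38 ± 0.15 (adjusted p = 0.258).

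Groups that did not overlap were found for Per2 and Clock, higher under HDM, and Dbp, lower, which is 3 of 10 (22% of all genes). Clock was at 0.26 ± 0.14 (adjusted p = 0.376) and Dbp at -1.05 ± 0.50 (adjusted p = 0.325). The Dbp value was -0.32 without tumour VEH replicate 2, the library with the most airway and alveolar RNA among tumours. Bmal1 means were 27.8 ± 13.3 and 25.9 ± 9.84 CPM (SD, n = 3), a log2 fold change of -0.10 ± 0.45.

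Whether the difference between tumour and lung itself depended on treatment was tested by the interaction. No clock gene was called (0% of all genes), and Per2 alone was below an unadjusted p of 0.05 (9.39% of all genes). For Per2 the difference was 1.16 ± 0.45 (SE, log2 scale, adjusted p = 0.512, edgeR), that is a smaller fall under HDM. The largest value was that of Per1, 2.03 ± 0.92 (adjusted p = 0.531), which was 0.16 without the 4 libraries of conflicting prefixes. Dbp was at -0.90 ± 0.70, and at -0.18 without tumour VEH replicate 2. The falls of Per2, Nr1d1 and Dbp under the 2 treatments were thus not shown to differ.

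Each lung was also set against the tumour of the same prefix. Bmal1 and Cry1 were higher in the tumour in 6 of 6 pairs, and Clock, Per2, Per3, Cry2, Nr1d1, Nr1d2 and Dbp were lower in 6 of 6. For each of these genes the tumours and the lungs did not overlap. Any pairing of lungs with tumours would therefore give 6 of 6, and these counts add nothing to the lack of overlap. The log2 differences within pairs ran from 1.29 to 2.57 for Bmal1 and from -4.01 to -1.88 for Dbp. Per1 was lower in 5 of 6 pairs, at -1.24 to -0.79 in those 5. In the pair of normal VEH replicate 2 (163 CPM) and tumour HDM replicate 2 (203 CPM) it was higher by 0.32. For Per1 under HDM the fit by label had given 0.34, and 2 of the 3 tumour HDM libraries were below their prefix's lung.

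Per1 levels in the lung and the tumour of a prefix moved together. The lungs with the highest 2 Per1 values, normal VEH replicate 2 and normal HDM replicate 1, share prefixes with the tumours that have the highest 2, tumour HDM replicates 2 and 3. Over the 6 pairs, Pearson's r of log2 CPM was 0.938 (exact permutation p = 0.0125, Benjamini-Hochberg 0.125 over 10 genes) and Spearman's rho 0.829 (exact permutation p = 0.0583, adjusted 0.495). Without the 2 pairs whose lungs lay farthest from the median, r was 0.284, so the relation rests on those pairs. None of the 10 genes had an adjusted p below 0.05 for this relation.

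Glucocorticoid-induced genes were listed because Per1 is one of them. Fkbp5, a co-chaperone of the receptor, was at 15.9, 149 and 15.3 CPM in normal VEH and 41.6, 29.0 and 16.3 in normal HDM, so its highest 2 lungs were the highest 2 for Per1. In tumours it was at 97.0, 96.5 and 101 CPM under VEH and 99.9, 210 and 121 under HDM, with the highest 2 again those of Per1. Not all of the list followed Per1 in both of these tumours. Sgk1, Klf9 and Zbtb16 were the highest of all tumours in tumour HDM replicate 2 (106, 98.7 and 2.66 CPM). In tumour HDM replicate 3 they were the lowest of all tumours (33.6, 15.4 and 0.546 CPM). Tsc22d3, which encodes GILZ, was at 152, 301 and 155 CPM in normal VEH, 224, 119 and 126 in normal HDM, 45.2, 58.2 and 34.6 in tumour VEH and 34.6, 140 and 35.3 in tumour HDM. Of the 7 genes, Per1 included, 4 fell under VEH, with log2 fold changes of -5.10 (Zbtb16), -2.30 (Klf9), -2.14 (Tsc22d3) and -1.75 (Sgk1). Under HDM, Zbtb16 (-3.80) and Klf9 (-1.44) fell, and Fkbp5 (2.31) rose. The called shares of all genes were 38.9% and 51.9%, so 4 of 7 under VEH was above and 3 of 7 under HDM below them. Of 7 immediate-early genes, Dusp1 fell under VEH and Nr4a1 and Ier2 fell under HDM, both counts below the 38.9% and 51.9% of all genes called. The part of glucocorticoid or handling signals in the Per1 values was not tested.

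**Figure D3:**
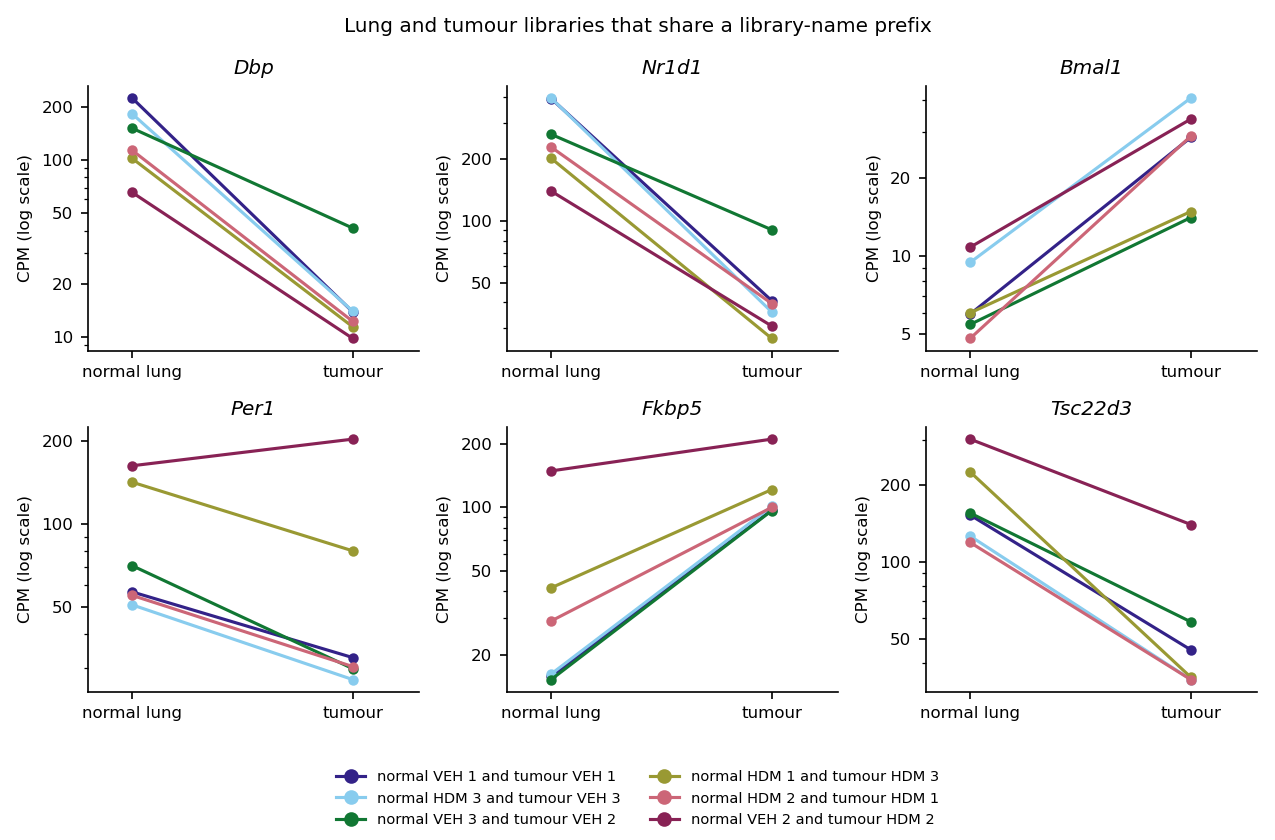
CPM on a log axis in the lung and the tumour library of each of the 6 prefixes, joined by a line in 1 colour per pair, for Dbp, Nr1d1, Bmal1, Per1 and the glucocorticoid-induced genes Fkbp5 and Tsc22d3. Bmal1 lines climb and Dbp lines drop in 6 of 6 pairs, and the pair of normal VEH replicate 2 and tumour HDM replicate 2 is highest at both ends for Per1, Fkbp5 and Tsc22d3.

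In lung, Dbp and Nr1d1 varied together from library to library. In the 6 lungs of both treatments, Dbp ran from 65.8 CPM (normal VEH replicate 2) to 225 (normal VEH replicate 1) and Nr1d1 from 139 to 395, with Pearson's r of log2 CPM at 0.980 (exact permutation p = 0.00278, adjusted 0.0333 over 12 relations) and Spearman's rho at 0.943 (exact permutation p = 0.0167, adjusted 0.1). Without the 2 lungs farthest from the median Dbp, r was 0.952. Dbp and Per3 in lung had an r of 0.858 (exact permutation p = 0.0292, adjusted 0.117) and a rho of 0.943 (exact permutation p = 0.0167, adjusted 0.1), with r at 0.972 without 2 lungs.

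In the 6 tumours, Dbp and Nr1d1 had an r of 0.960 (exact permutation p = 0.0194, adjusted 0.117) and a rho of 0.771 (exact permutation p = 0.103, adjusted 0.411), and r was 0.701 without the 2 farthest tumours, 1 of them tumour VEH replicate 2. Bmal1 and Dbp, which peak at opposite times in a running clock, had an r of -0.328 in lung (rho -0.314) and -0.565 in tumours (rho -0.257), with exact permutation p-values of 0.508 and 0.262 for r (adjusted 0.762 and 0.63) and 0.564 and 0.658 for rho (both adjusted 0.779). Without 2 libraries these r were 0.329 and 0.0727.

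With each group centred on its mean, the 12 libraries gave 45 pairs of members. As a description, r was 0.965 for Nr1d1 and Dbp, 0.941 for Nr1d1 and Nr1d2, 0.903 for Nr1d2 and Dbp, 0.810 for Per3 and Dbp and 0.785 for Per1 and Cry1. It was above 0.5 for 8 pairs and below -0.5 for 5, among them -0.561 for Bmal1 and Dbp and -0.609 for Per1 and Per3. These points share libraries, depth and tissue makeup.

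The lungs with high Dbp and Nr1d1 also differed in makeup. The mitochondrial share of counts was 5.38%, 2.52% and 3.81% in normal VEH and 2.21%, 1.96% and 3.62% in normal HDM, so the 3 lungs above 3% were the 3 with the highest Dbp. Airway markers summed to 112770, 26782 and 89204 CPM in normal VEH and 24601, 62420 and 62542 in normal HDM, with the lowest 2 being the lowest 2 for Dbp and the highest 2 for Per1. Macrophage markers (5 genes) summed to 206, 7648 and 296 CPM in normal VEH and 8076, 5570 and 215 in normal HDM. The 3 lungs with the lowest macrophage sums were the 3 with the highest Dbp. Among tumours the mitochondrial share was highest (1.79%) in tumour VEH replicate 2, the one with the highest Dbp, Nr1d1 and airway markers. Whether makeup had a part in the spread of Dbp and Nr1d1 was not tested.

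The genes most like Dbp over the 12 centred libraries, among 11047 expressed genes, were Trib2 and Tmem35b (r = 0.975), Med31 and Smagp (0.974) and the pseudogene Atp6-ps (0.973). Those most opposed were Rad23b (-0.987), Fkbp15 (-0.974), Pard3 (-0.964), Dock5 (-0.959) and Man2a1 (-0.958). For Bmal1 the most alike were Pias3 (0.953), Itga5 (0.936), Ncoa2 (0.933), Prdm4 (0.922) and Tdg (0.917), and the opposed genes included Cenpv (-0.946), Cox6a1 (-0.942), Psmg4 (-0.939) and Dhrs7b (-0.936). The highest values for Dbp among all these genes exceeded its r of 0.965 with Nr1d1, and with 12 libraries and this many genes such values are a ranking only.

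Levels can be compared between genes only per length. In CPM per kilobase, by the deposited gene lengths, the order of group means was the same in both lung groups: Nr1d1, Dbp, Nr1d2, Per1, Cry2, Per2, Cry1, Clock, Per3 and Bmal1. In normal VEH the order ran from 86.2 ± 41.2 CPM per kilobase for Nr1d1 to 0.983 ± 0.393 for Bmal1 (SD, n = 3). Between them came Dbp (49.2 ± 26.6), Nr1d2 (23.1 ± 5.89), Per1 (17.2 ± 10.2), Cry2 (10.7 ± 0.803), Per2 (6.13 ± 1.39), Cry1 (5.73 ± 0.525), Clock (3.89 ± 0.586) and Per3 (3.38 ± 0.831). Neighbours in this order had overlapping ranges of mean ± SD except Cry2 and Per2, Cry1 and Clock, and Per3 and Bmal1. In normal HDM the neighbours without overlap were Dbp and Nr1d2, Cry2 and Per2, and Per3 and Bmal1.

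The order of means differed in the tumours. In tumour VEH, Nr1d1 (18.1 ± 9.77 CPM per kilobase) was followed by Cry1 (7.89 ± 0.944), Dbp (7.70 ± 5.28), Nr1d2 (7.11 ± 2.07), Per1 (5.31 ± 0.488) and Bmal1 (3.70 ± 1.77), and Bmal1 stood above Cry2 (2.82 ± 0.356), Clock (2.15 ± 0.167), Per2 (1.18 ± 0.305) and Per3 (0.452 ± 0.197). The ranges of mean ± SD overlapped between neighbours from Nr1d1 to Cry2 and not below. In tumour HDM, Per1 was first with an SD that spans most of the list (18.6 ± 15.8), followed by Nr1d1 (10.5 ± 2.13), Cry1 (8.69 ± 1.86) and Nr1d2 (8.48 ± 0.930). Then came Dbp (3.72 ± 0.414), Cry2 (3.66 ± 0.600), Bmal1 (3.44 ± 1.31), Clock (2.59 ± 0.239), Per2 (2.54 ± 0.734) and Per3 (0.679 ± 0.185), and neighbours overlapped except Nr1d2 and Dbp, and Per2 and Per3.

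The loop has further genes, of which 26 were listed and all were tested. Of these, 13 were called under VEH (3 higher, 10 lower) and 16 under HDM (5 higher, 11 lower), where 38.9% and 51.9% of all genes were called, with median log2 fold changes of -0.70 and -0.80. Without the 4 libraries of conflicting prefixes the counts were 10 and 12 (25% and 37.9% of all genes). None was called between HDM and VEH in lung or in tumour, or for the interaction, by edgeR, and 0, 2 and 1 of the 26 were below an unadjusted p of 0.05 in these 3 comparisons, at or below the 5.54%, 16.7% and 9.39% of all genes.

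The 11 relatives of the members (PAR bZIP factors, E-box repressors, RORs and paralogs) held most of these calls, 7 under VEH (1 higher, 6 lower; median -1.98) and 9 under HDM (1 higher, 8 lower; median -2.22), again beside 38.9% and 51.9% of all genes. Tef, a PAR bZIP factor like Dbp, was at 205 to 303 CPM in the 6 lungs and 39.8 to 64.4 in the 6 tumours. Its log2 fold changes were -2.36 under VEH and -2.50 under HDM, an order kept below (adjusted p = 0.000304 and 8.3e-05, edgeR). Hlf, the third PAR bZIP factor, was at 22.4 to 39.8 CPM in lungs and 0.121 to 2.68 in tumours, and fell (-4.66 and -6.09, adjusted p = 0.00101 and 0.000217). It overlaps Mmd on the opposite strand, which was at -0.06 and 1.04.

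Rora, which encodes a receptor that activates Bmal1 through the same ROR elements the REV-ERBs use, was at 35.6 to 48.6 CPM in lungs and 1.40 to 6.69 in tumours, and fell (-2.81 and -3.73, adjusted p = 0.000551 and 0.000103, edgeR). Bmal1 thus rose in tumours in which both its repressor genes Nr1d1 and Nr1d2 and its activator gene Rora fell. Npas2, which encodes a stand-in for CLOCK, fell under HDM (-3.03) and was at -2.24 under VEH (adjusted p = 0.083, edgeR). Npas2 had few counts (710 in all) and overlaps Gm53549 (91800) on the opposite strand, which was at 1.10 and 1.22. Bmal2, the paralog of Bmal1, was the 1 gene of this list that rose, from 0.0821 to 1.29 CPM in lungs to 5.23 to 8.79 in tumours (3.25 and 3.55 on the log2 scale, adjusted p = 0.00867 and 0.00389). Nfil3, which encodes a repressor at D-boxes, was at 0.95 and 1.37 and was not called.

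The 9 kinase and ubiquitin ligase genes that set the stability of PER and CRY proteins were split, with 4 called under VEH (2 higher, 2 lower) and 5 under HDM (3 higher, 2 lower), and medians of 0.27 and 0.29. These counts are near the 38.9% and 51.9% of all genes called. Prkaa2, an AMPK catalytic subunit gene, fell (-3.29 and -5.01, adjusted p = 0.0257 and 0.00385, edgeR), while its paralog Prkaa1 rose (0.61 and 0.72). Csnk1d, a kinase gene for PER proteins, rose under HDM (0.46).

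Of the 6 output genes, 2 fell under VEH, Usp2 (-1.61) and Tsc22d3 (-2.14). Under HDM Usp2 fell (-1.69) and Wee1, a cell cycle kinase gene, rose (0.87, adjusted p = 0.00819, edgeR). The medians of the list were -0.46 and -0.44, and its 2 calls in each treatment are fewer than the 38.9% and 51.9% of all genes.

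**Figure D4:**
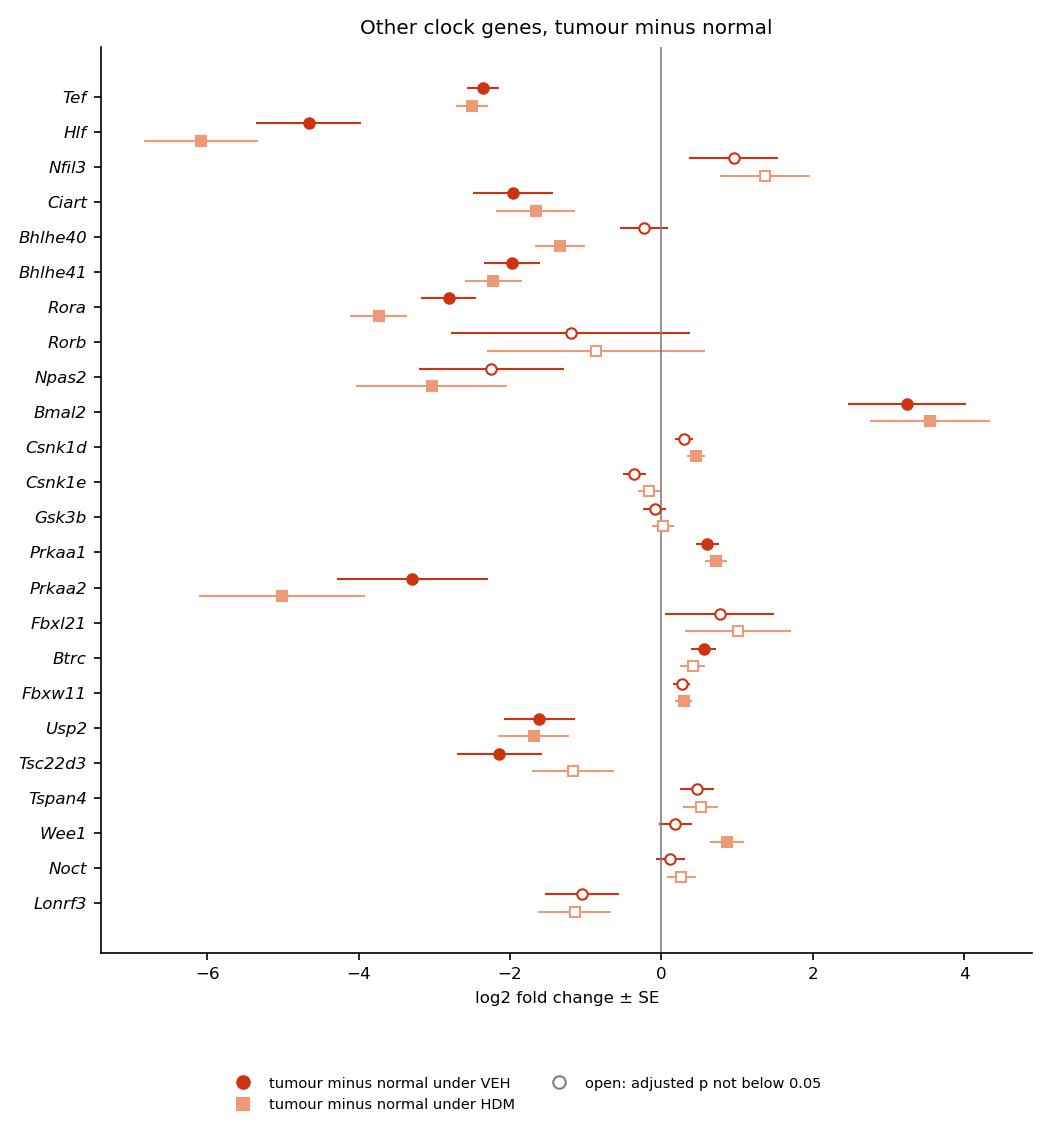
Log2 fold change, tumour against lung, of further clock genes under VEH and under HDM, with bars of ± 1 SE; filled symbols passed an adjusted p below 0.05. Hlf lies farthest to the left at -4.66 and -6.09 and Bmal2 farthest to the right at 3.25 and 3.55.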

How the data were processed

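RNA was sequenced in 12 mouse libraries, 3 per group. The authors deposited 1 table of raw counts per Ensembl gene with gene lengths, per the file headers. The submitters' processing notes name Trim Galore, STAR, Subread, featureCounts and the build mm39, and their settings are not given in the sources used here. Symbols and coordinates came from GENCODE M39 (GRCm39), which held 78168 of 78298 identifiers. Groups came from the labels. The members, gene lists, marker lists and tests were chosen with earlier results of these data known.

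Counts were fitted in R 4.3.3 with edgeR 4.0.16: filterByExpr (minimum count 10, leaving 22190 genes), TMM, a coefficient per group over all 12 libraries, robust quasi-likelihood F-tests (two-sided) and Benjamini-Hochberg adjustment over all genes tested, called at an adjusted p below 0.05. SE is the log2 fold change over the square root of F. The fit was also run on simulated counts with the same spread for every gene, which does not test it at the spread of these libraries. Totals of 20608682 to 32765364 counts leave little counting error. Replicate libraries differed by more than counting noise, and each was kept as a sample. This does not tell separate mice from separate pieces of the same mouse. Correlations used log2 CPM (prior count 2) and exact permutation tests, two-sided; differences within prefix pairs added 0.1 CPM. Named genes were all 10 members, at most 4 called genes per list and direction by size of change, and for Dbp and Bmal1 the 5 most and 5 least alike genes with an average log2 CPM of at least 3. Nfil3 falls outside this rule and was chosen after its values were seen. A few genes that this rule names are counted but not reported here. Alternatives were DESeq2 size factors, library size only, 2 other filters, the DESeq2 1.42.0 Wald test, only the compared groups, a replicate block, a prefix block, the 8 libraries whose prefixes do not conflict, and leaving out each library.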

Additional observations from a re-analysis of the deposited data

How the results depend on the processing

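In the comparison of tumour with lung under VEH, every value of the 10 genes kept its direction under all alternatives run, and members called stayed at 8 when any 1 library was left out. Under HDM they ranged from 8 to 9. Other clock genes called ranged from 9 to 12 under VEH (13 with all libraries) and from 14 to 17 under HDM. In these fits 24.7% to 39.2% of all genes were called under VEH and 42.5% to 46.5% under HDM. Where each library had to hold 10 counts of a gene, 19 of the 26 other clock genes were left to test. Of these, 10 were called under HDM (16 otherwise), near the 51.7% of all genes called in that setting. The DESeq2 Wald test called 1 member, Per2, between HDM and VEH in tumours (1.07), along with 1308 genes in all where edgeR called 21. In adjacent lung it called 38 genes and for the interaction 219, where edgeR called 0 in each.

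Values whose sign changed were all uncalled. The Bmal1 interaction (0.03) was -0.0031 with DESeq2 size factors, -0.020 where each library had to hold 10 counts, -0.0032 with the Wald test and from -0.35 to 0.46 with 1 library left out. Per1 under HDM was -0.63 with the library-name prefix as a block, -0.76 without the 4 libraries of conflicting prefixes, and from -0.50 to 0.98 with 1 library left out. Between HDM and VEH in tumours, Nr1d1 was 0.48 and Dbp 0.36 with the prefix block, Bmal1 was 0.051 and Cry1 -0.019 without the 4 libraries, and Bmal1 ranged from -0.42 to 0.30 with 1 library left out. The cause was not tested.

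With the replicate number as a block, 8 and 9 members and 13 and 17 other clock genes were called under VEH and HDM (35.3% and 49.6% of all genes), and no call of a member changed. Same-numbered libraries did not deviate together (r from -0.355 to 0.303, above 0.1 in 8 of 18 pairs), so the numbers were not taken as pairing. Libraries of 1 prefix had r from -0.219 to 0.179, above 0.1 in 3 of 6 pairs, so this measure did not show them to deviate together either. With the prefix as a block, 8 and 8 members and 11 and 14 other clock genes were called (26.1% and 38.9% of all genes). Scaling by library size only moved the median of all genes from -0.11 to 0.03 under VEH and from -0.08 to 0.10 under HDM, and the share of higher calls from 46.9% to 55.1% and from 44.4% to 51.8%.

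With 3 libraries per group, differences of the size seen between HDM and VEH could not be separated from the spread between libraries. Depth limited few values, the lowest being Bmal2 in lung and Hlf in tumours.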
